A study of Mus musculus with 2 samples.

Results

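The 9 genes described here were the adult haemoglobin genes Hba-a1, Hba-a2, Hbb-bs and Hbb-bt and 5 further genes highly transcribed in erythroid cells, Alas2, Bpgm, Fam46c, Mkrn1 and Ube2l6. They were chosen by name, with earlier results of these data known. All 9 had a row in both count tables, in which 21722 genes were listed in total. Their transcripts were counted by scRNA-seq in liver non-parenchymal cells (NPCs), the liver cells left after hepatocytes had been spun out at low speed. The normal library came from 1 male C57BL/6 mouse that received olive oil, and the fibrosis library from 1 male C57BL/6 mouse that received carbon tetrachloride (CCl4), a hepatotoxin that scars the liver. Both mice were 8 weeks old and had intraperitoneal injections 2 times a week for 6 weeks. With 1 mouse and 1 library per condition there was no replicate, no test was possible, and a difference between libraries cannot be told apart from a difference between animals, perfusions or preparations.

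Haemoglobin is built from a pair of alpha chains and a pair of beta chains, each holding a haem group, and its mRNA dominates the late erythroid precursors and reticulocytes that make red cells. In the mouse the alpha chains come from the neighbouring copies Hba-a1 and Hba-a2 and the beta chains from Hbb-bs and Hbb-bt, and the liver makes red cells in the fetus but hardly in the healthy adult, where erythroid cells reach it with the blood. Alas2 is the first and rate-limiting enzyme of erythroid haem synthesis, and Bpgm makes bisphosphoglycerate, which lowers the oxygen affinity of haemoglobin. Fam46c (also Tent5c) is a poly(A) polymerase known from plasma cells, Mkrn1 is a ubiquitin ligase, and Ube2l6 is the interferon-inducible conjugating enzyme that passes ISG15 to its targets.

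The alpha copies lie on chromosome 11 of the mm10 build (GENCODE positions 32283511 to 32284465 and 32296489 to 32297298, both on the plus strand) and the beta copies on chromosome 7 (Hbb-bs 103826534 to 103828096, Hbb-bt 103812524 to 103813996, both on the minus strand), each gene with 3 exons. Alas2 lies on chromosome X (150547375 to 150570638), Bpgm and Mkrn1 on chromosome 6 (34476207 to 34505613 and 39397804 to 39420462), Fam46c on chromosome 3 (100451628 to 100489324) and Ube2l6 on chromosome 2 (84798828 to 84810335). The annotated Hba-a1 and Hba-a2 transcripts were identical at 537 of 538 aligned bases (99.81%), so the division of alpha reads between both copies was uncertain. Hbb-bs and Hbb-bt were identical at 580 of 626 aligned bases (92.65%) but at 68 of 97 (70.1%) in the last 100 bases, with 260 of 297 (87.54%) in the last 300.

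The 250 bases before the RefSeq start are printed for the genes whose RNA moved together most closely in these libraries, the globins and Alas2 (build GRCm38.p6, read on the strand of the gene). Hba-a2 is left out because it was identical to Hba-a1 at 247 of 247 aligned bases, whereas Hbb-bs and Hbb-bt shared 178 of 243 (73.25%). Capitals mark, on either strand, GATAA (the core bound by GATA factors), CACCC (the core bound by erythroid Krüppel-like factors), CCAAT (the core bound by CCAAT factors) and ATATAA (a form of the TATA box). Adjoining capitals can be neighbouring matches.
Hba-a1, chr11:32283422-32283671, plus strand: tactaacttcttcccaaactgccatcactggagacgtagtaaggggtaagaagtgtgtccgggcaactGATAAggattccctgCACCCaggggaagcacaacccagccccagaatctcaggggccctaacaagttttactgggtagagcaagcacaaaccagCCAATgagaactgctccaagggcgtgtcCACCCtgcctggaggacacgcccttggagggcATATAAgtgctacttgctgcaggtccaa
Hbb-bs, chr7:103827929-103828178, minus strand: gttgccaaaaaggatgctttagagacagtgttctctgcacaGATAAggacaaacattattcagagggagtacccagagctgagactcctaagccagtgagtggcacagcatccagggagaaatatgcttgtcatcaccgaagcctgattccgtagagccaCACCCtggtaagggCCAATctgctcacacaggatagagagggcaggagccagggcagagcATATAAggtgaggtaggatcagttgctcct
Hbb-bt, chr7:103813924-103814173, minus strand: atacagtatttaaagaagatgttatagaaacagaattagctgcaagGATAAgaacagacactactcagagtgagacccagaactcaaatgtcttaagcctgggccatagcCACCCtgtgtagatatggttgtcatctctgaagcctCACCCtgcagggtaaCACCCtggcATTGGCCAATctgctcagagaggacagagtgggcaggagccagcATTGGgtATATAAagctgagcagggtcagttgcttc
Alas2, chrX:150547167-150547416, plus strand: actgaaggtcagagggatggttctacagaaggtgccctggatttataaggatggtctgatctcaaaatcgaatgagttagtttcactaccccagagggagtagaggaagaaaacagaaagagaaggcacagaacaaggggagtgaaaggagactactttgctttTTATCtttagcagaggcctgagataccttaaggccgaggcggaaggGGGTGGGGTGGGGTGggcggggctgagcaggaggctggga

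All 4 globin promoters held each of the 4 motifs, with ATATAA 28 to 31 bases before the RefSeq start. The GENCODE transcripts start further upstream, by 161 bases for Hba-a1, 168 for Hbb-bs, 73 for Hbb-bt and 42 for Alas2, so the windows follow RefSeq alone. Alas2 held GATAA 86 bases before its start and CACCC at 40, 35 and 30 bases, while the CCAAT core was not in this window, nor was ATATAA. Over 32851 RefSeq promoter windows, 22.6% held GATAA, 52% held the CACCC core, 33.8% held the CCAAT core and 9.1% held the ATATAA form, so single matches were common and say nothing of binding. The windows of Bpgm and Fam46c held CCAAT alone and that of Ube2l6 held CACCC alone.

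The normal library held 8130 cells and 44062632 UMIs (unique molecular identifiers, each standing for 1 captured mRNA counted from its 3′ end, whatever its length), and the fibrosis library 6437 cells and 53288463 UMIs. Cells with under 10% mitochondrial UMIs and over 200 genes were kept, 7471 and 6132. They fell into 16 classes, of which 13 were found in both libraries. These were named "-like" from marker genes, except a shallow cluster and a pool of cycling cells, which were left unnamed. The 9 genes and all other globins were left out of the variable genes and marker lists. Haemoglobin did decide which cluster of each library was split further, the one with most droplets over 10% haemoglobin. In normal this was a cluster of 1166 cells named erythroid by its markers, of which 292 kept that name and 874 were left as the shallow unnamed cluster. In fibrosis it was a cluster of 553 cells named hepatocyte by its markers, all of which were left as the shallow unnamed cluster. The libraries shared 15 cell barcodes. Levels are UMIs per 10000 UMIs with exact Poisson 95% intervals, ratios have exact conditional 95% intervals and shares exact binomial 95% intervals. All of these cover counting error only, and differences were read by size, with 2-fold as the limit. Shares of all genes past 2-fold count the genes with at least 1 per 10000 on 1 side of a comparison, while the 9 genes are described at any level with their intervals.

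Haemoglobin RNA was far more abundant in the normal library. The 4 genes gave 974654 UMIs in the kept normal cells, 2.36% of all UMIs or 236 per 10000, and 19359 UMIs in fibrosis, 3.78 per 10000, a normal level 62.5 times (61.6 to 63.4) the fibrotic one. Without the erythroid-like class the normal level was 56.2 per 10000, still 14.9 times that of fibrosis. That remainder was 102 per 10000 when clusters were made finer (resolution 1.5), 106 with a mitochondrial limit of 5%, which kept 1853 cells, and 4.79 without the droplets over 10% haemoglobin described below.

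An erythroid-like class was found in the normal library and not in fibrosis, although 30 fibrosis cells took that name when the 9 genes were kept in the clustering. It held 292 normal cells, 3.91% of the kept cells (3.48 to 4.37), or 15.2% with the mitochondrial limit of 5%, with a median of 3672.5 UMIs and 611 genes per cell. A defining red cell membrane gene was present, with 158 UMIs of Slc4a1 (the anion exchanger band 3), beside 892 of Bnip3l, 864 of Epb41, 685 of Slc25a37 and 530 of Fech. Of the 50 erythroid markers fixed for naming 47 were listed in the normal table, 4 of them at 0 in this class. Their summed level was 186 per 10000 non-globin UMIs, against 14.1 in cells that were not rich in haemoglobin. The early regulators of the lineage were nearly absent, with Klf1 at 0, Gata1 at 2 UMIs and the transferrin receptor Tfrc at 5. The 24 hepatocyte markers, all detected, were also high in these droplets at 1085 per 10000 non-globin UMIs against 343 in the normal cells that were not haemoglobin-rich, and their part in the values below was not tested.

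In the erythroid-like cells haemoglobin made up most of the RNA. The share of a cell's UMIs that came from the 4 genes ran from 0.0892% through a median of 70.8% to 80.4%, and it exceeded 10% in 290 of the 292 cells. The class level was 6959 per 10000 (6943 to 6975), or 2564 haemoglobin UMIs per cell, and the class held 76.8% (76.7 to 76.9) of the normal library's haemoglobin UMIs with 2.61% of its UMIs. Hbb-bs was the most abundant at 3590 per 10000, then Hba-a1 at 1309, Hba-a2 at 1139 and Hbb-bt at 921, and no neighbours in that order had overlapping intervals. Per cell the same genes averaged 1323, 482, 420 and 339 UMIs.

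**Figure D1:**
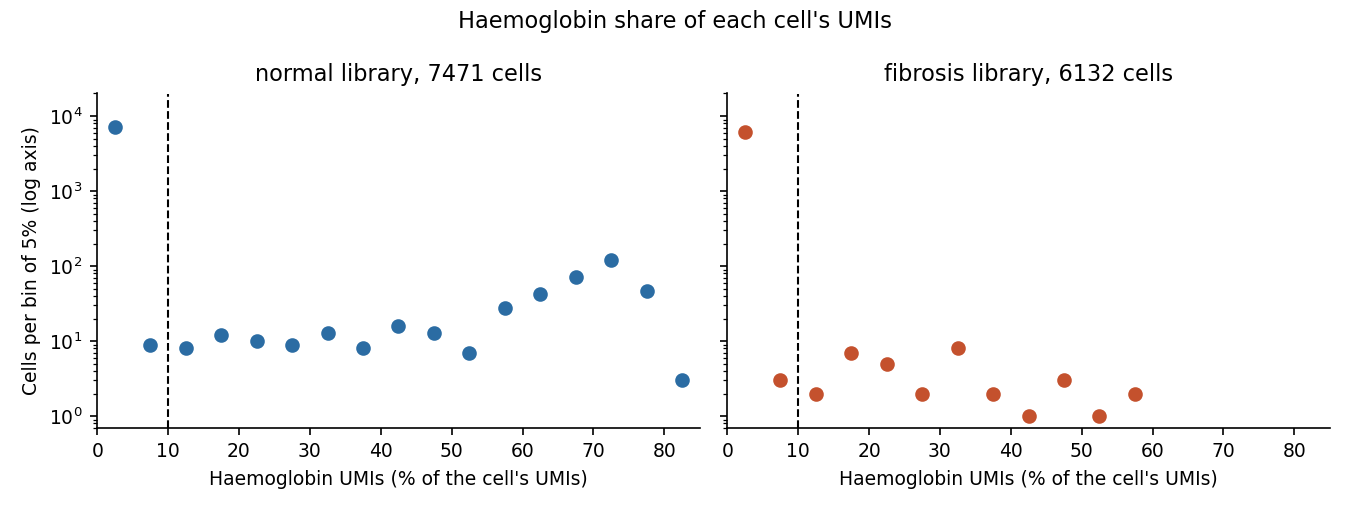
Cells per 5% bin (y axis, log scale) of the haemoglobin share of a cell's UMIs (x axis, %), for the 7471 normal cells on the left and the 6132 fibrosis cells on the right, with a dashed line at 10%. Most cells lie in the lowest bin in both libraries, another group around the erythroid-like median of 70.8% is seen in the normal library, and the fibrosis library has 33 scattered cells above the line.

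All 9 genes were at least 2-fold higher in erythroid-like cells than in all other normal cells, where 2.01% of the 1942 genes read were that much higher and 87.4% that much lower. Per non-globin UMI, which removes the room that haemoglobin takes up, 19% of 2265 genes were higher and 38% lower, and again all 9 of these genes were higher. The median ratio over all genes was 0.166, and 0.604 per non-globin UMI, while that of the 9 genes was 70.04 and 229. Since the other cells include 120 further droplets rich in haemoglobin, these ratios also depend on where those droplets were placed.

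Among the non-globin genes Alas2 was the highest in erythroid-like cells. It reached 17.9 per 10000 (17.1 to 18.7), from 1928 UMIs in 284 of 292 cells, with a median of 6 UMIs per cell. Fam46c followed at 14.6 (275 cells), then Mkrn1 at 13.3 (272 cells) and Bpgm at 13.2 (270 cells), whose intervals overlapped, and Ube2l6 was the lowest at 6.58 (251 cells). Each was thus found in 86.0% to 97.3% of the cells. The order by ratio was another. Alas2 and Bpgm stood 70.04-fold (64.9 to 75.6) and 64.7-fold above the remaining normal cells, whereas Fam46c, Mkrn1 and Ube2l6 stood 27.2-, 18.8- and 17.9-fold above them. Without the haemoglobin-rich droplets among the remaining cells Alas2 stood 147-fold and Bpgm 102-fold above them, and with the mitochondrial limit of 5% Fam46c stood 15.2-fold above them.

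The erythroid-like cells fell into sub-clusters of 94 and 198 cells that differed little in haemoglobin. The smaller was 1.05 times the larger in summed haemoglobin, 0.998 times in Hba-a1 and 1.19 times (1.18 to 1.21) in Hbb-bt. It was 1.63 times (1.47 to 1.81) the larger in Bpgm, 1.59 times in Mkrn1, 1.45 times in Fam46c and 1.22 times in Alas2, while the interval for Ube2l6 included equal levels (1.13, 0.970 to 1.32). None of the 9 genes reached 2-fold, compared with 8.78% of genes higher and 0.532% lower in the smaller sub-cluster.

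The non-globin genes were higher where haemoglobin was higher among these cells. The 292 cells were divided into 4 groups of 73 by their haemoglobin share, with bounds at 65.7%, 70.8% and 73.8%. Alas2 then ran from 44.5 per 10000 non-globin UMIs in the lowest group through 50.3 and 68.0 to 75.7 in the highest. Bpgm ran from 26.2 to 61.8, Fam46c from 33.4 to 60.1, Mkrn1 from 28.6 to 56.3 and Ube2l6 from 17.1 to 27.6, each higher in every successive group. Non-globin UMIs enter both the haemoglobin share and these levels as a denominator, so the gradients are a description.

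Droplets with over 10% haemoglobin UMIs, called haemoglobin-rich here, occurred in both libraries and were selected by the genes under study, so their haemoglobin is a description. The normal library held 410 (5.49% of cells, 4.98 to 6.03), which carried 98.0% of its haemoglobin UMIs at a median share of 68.3% (10.7% to 81.4%). The fibrosis library held 33 (0.538%, 0.371 to 0.755), which carried 78.2% of its haemoglobin UMIs at a median share of 31.3% (14.1% to 57.3%). The share exceeded 50% in 321 of the normal droplets and in 3 of the fibrotic ones. The nearest cells below the limit had 9.60% (normal) and 7.46% (fibrosis).

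Outside the erythroid-like class the normal library had 120 haemoglobin-rich droplets, with a median share of 42.2%. They lay mostly in a shallow unnamed cluster (52) and in the endothelial-like (18), T/NK-like (13) and hepatocyte-like (11) classes, and none was in the mesothelial-like, portal fibroblast-like or stellate-like class. The 28 endothelial markers reached 319 per 10000 non-globin UMIs in the rich endothelial-like droplets and 355 in the other endothelial-like cells, so these droplets held both RNAs. In fibrosis 28 of the 33 lay in the shallow unnamed cluster, 3 were endothelial-like, 1 was hepatocyte-like and 1 was B-like. The endothelial markers reached 72.6 per 10000 non-globin UMIs (42.3 to 116) in the 3 endothelial-like droplets, against 333 in the other endothelial-like cells. The median depth of the 33 was 1176 UMIs, against 3672.5 in the normal rich droplets. The erythroid markers other than these genes reached 55.5 per 10000 non-globin UMIs there against 14.5 in the remaining fibrosis cells, with Slc25a37 at 36 UMIs and Bnip3l at 24, but 18 of the 43 listed markers were at 0 and Slc4a1 was not listed. The 33 droplets took the class of their cluster. No fibrosis cluster or sub-cluster was named erythroid unless these genes and other globins were kept in the clustering.

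The 5 non-globin genes were all found in the fibrotic haemoglobin-rich droplets. Alas2 gave 58 UMIs (11.1 per 10000), Fam46c 55 (10.5), Mkrn1 and Ube2l6 26 each (4.96) and Bpgm 23 (4.39). In the normal haemoglobin-rich droplets the levels were 15.2, 11.9, 10.8, 5.66 and 10.7 in the order Alas2, Fam46c, Mkrn1, Ube2l6 and Bpgm. Fibrosis was thus lower for Bpgm (ratio 0.412, 0.260 to 0.620) and Mkrn1 (0.458, 0.298 to 0.673), the 2 non-globin genes past 2-fold, and for Alas2 (0.727, 0.550 to 0.943), whereas the intervals for Fam46c (0.882) and Ube2l6 (0.876) included equal levels.

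With Hbb-bs (0.434) and Hbb-bt (0.368), 4 of the 9 genes were at least 2-fold lower in fibrotic haemoglobin-rich droplets and none was 2-fold higher. Over all 1492 genes read 3.89% were that much lower and 72.7% higher, with a median ratio of 2.95 against 0.570 for these 9, while haemoglobin took 58.9% of the UMIs in the normal and 28.9% in the fibrotic droplets. Per non-globin UMI the ratios of the 5 non-globin genes ran from 0.238 (Bpgm) to 0.509 (Fam46c). The rich droplets of both libraries differed in depth and in class. Their hepatocyte markers stood at 772 per 10000 non-globin UMIs in normal and 301 in fibrosis, and the erythroid markers other than these genes at 116 and 55.5. The part of any of these in the ratios was not tested.

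Most normal cells that were not haemoglobin-rich still carried a little haemoglobin RNA. Of 7061 such cells 5957 (84.4%) had at least 1 haemoglobin UMI, with a median of 2, while in fibrosis 1951 of 6099 (32.0%) did and the median was 0. With each cell thinned to 1000 UMIs the shares were 38.8% (37.6 to 39.9) and 8.75% (8.03 to 9.51), from which 2 and 394 cells too shallow to thin were left out. Exactly 1, 2 and 3 haemoglobin UMIs were found in 26.3%, 24.1% and 15.9% of these normal cells and in 25.1%, 5.74% and 0.902% of the fibrotic ones. For single genes the shares of cells with a UMI in normal and fibrosis were 65.8% and 13.3% for Hbb-bs, 30.8% and 11.3% for Hba-a2, 28.7% and 9.02% for Hba-a1, and 20.7% and 3.64% for Hbb-bt.

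A few droplets below the 10% limit held up to 1037 haemoglobin UMIs and decided class levels. With more than 20 UMIs each, 23 normal cells outside the erythroid-like class held 21.6% of the haemoglobin UMIs of the cells that were not rich, and 9 fibrosis cells held 42.8%. A single Kupffer-like fibrosis cell with 435 UMIs, for instance, raised that class from 0.396 to 1.82 per 10000. Class values are therefore given for the 7036 normal and 6090 fibrosis cells with at most 20, a limit set after the data were seen.

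In these cells every class carried haemoglobin, and the classes of a library lay within 2-fold of each other per cell. The limit of 20 UMIs itself bounds this number. The normal classes ran from 1.81 UMIs per cell (1.43 to 2.26) in portal fibroblast-like cells to 3.03 (2.73 to 3.36) in stellate-like cells, with 2.02 in endothelial-like, 2.12 in T/NK-like, 1.90 in B-like, 2.08 in Kupffer-like and 2.66 in hepatocyte-like cells. The fibrotic classes ran from 0.310 in the shallow unnamed cluster to 0.511 in stellate-like cells, with 0.378 in endothelial-like and 0.383 in T/NK-like cells. No fibrotic class reached any normal class, and over all classes the means were 2.12 (2.08 to 2.15) and 0.397 (0.382 to 0.413), a ratio of 5.33 (5.10 to 5.56). Within single classes the per-cell ratio of normal to fibrosis lay between 3.78 (mesothelial-like) and 6.71 (cholangiocyte-like), with intervals that all included 5.33 except those of the monocyte/dendritic-like class (4.76, 4.28 to 5.31) and the shallow unnamed cluster (6.58, 5.60 to 7.78). The 24 hepatocyte markers were also lower in fibrosis in the cells that were not haemoglobin-rich, at 343 per 10000 non-globin UMIs in normal and 40.5 in fibrosis. In endothelial-like cells they stood at 242 and 19.999, in T/NK-like cells at 350 and 35.4 and in B-like cells at 456 and 41.4, and their part in the haemoglobin difference was not tested.

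Scaled to depth, the same molecules gave a wide range of levels. In the normal library they ran from 1.49 per 10000 in mesothelial-like cells through 3.56 in endothelial-like and 6.50 in B-like cells to 12.5 in the shallow cluster, and in fibrosis from 0.168 in portal fibroblast-like cells to 2.22 in the shallow cluster. The classes with low levels were the deep ones, such as mesothelial-like (median 11232 UMIs) and cholangiocyte-like cells (9765 UMIs, 1.82 per 10000). The ratio of normal to fibrosis on this scale was 7.95 (7.62 to 8.31) over all classes, and 4.48 in neutrophil-like to 13.7 in portal fibroblast-like cells.

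**Figure D2:**
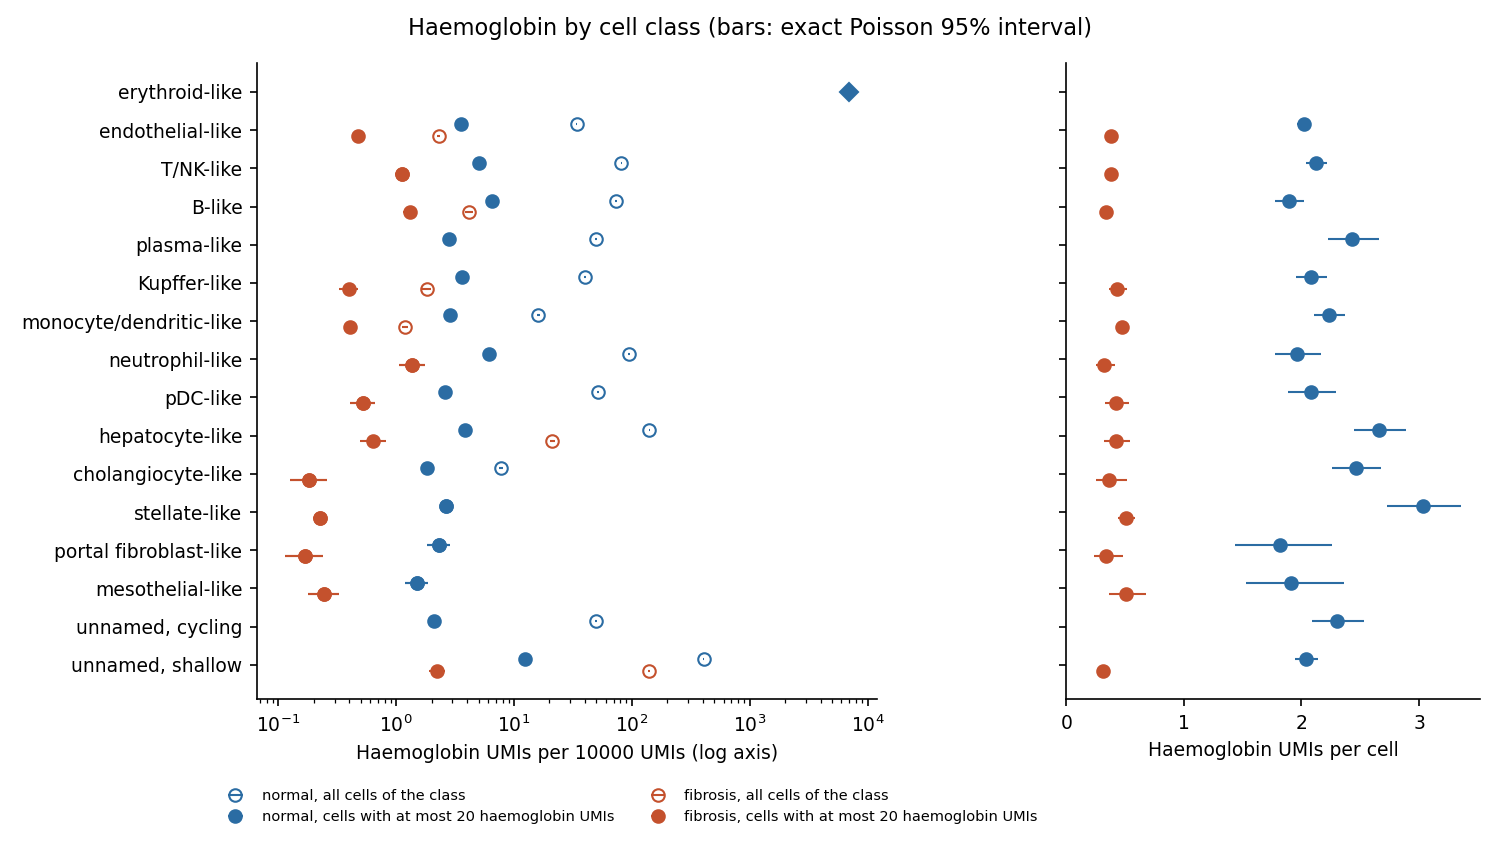
Summed haemoglobin UMIs per 10000 UMIs (left, log axis) and per cell (right) by cell class in the normal (blue) and fibrosis (orange) libraries, with exact Poisson 95% intervals. Open points are all cells of a class, filled points cells with at most 20 haemoglobin UMIs, and the diamond marks erythroid-like cells at 6959 per 10000. The filled per-cell values lie between 1.81 and 3.03 in the normal and between 0.310 and 0.511 in the fibrosis library.

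In cells with at most 20 haemoglobin UMIs the number of haemoglobin molecules followed depth only weakly. Across 5 equal groups of the normal cells by total UMIs, with medians from 1448 to 10840, the mean went from 1.83 to 2.67 per cell while the level fell from 12.1 to 2.10 per 10000. In fibrosis it went from 0.303 to 0.528 per cell between medians of 1196.5 and 18992.5 UMIs, and the level fell from 2.49 to 0.229. Among B-like and T/NK-like cells alone, which make no haemoglobin, the normal groups went from 1.78 in the shallowest to 2.46 per cell in the deepest. The fibrotic ones held 0.384, 0.276, 0.322, 0.397 and 0.431 from the shallowest to the deepest. The limit of 20 cuts the very number described. Without it, the shallowest and deepest groups of cells that were not haemoglobin-rich held 2.36 and 4.33 per cell in normal. In fibrosis they held 0.379 and 1.04.

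**Figure D3:**
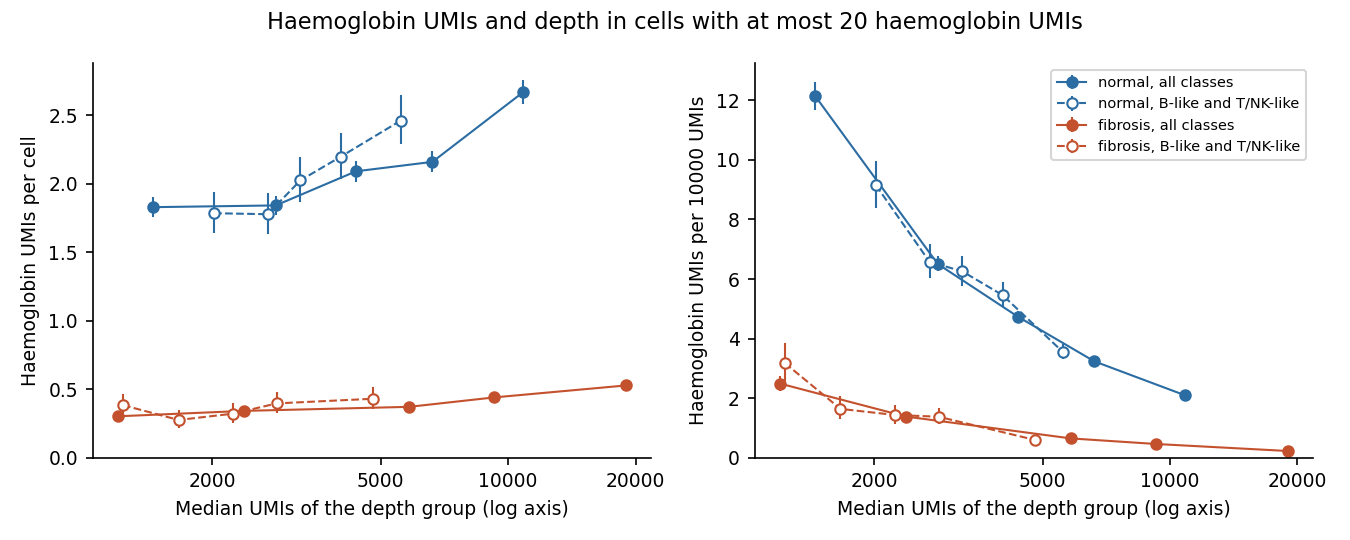
Haemoglobin UMIs per cell (left) and per 10000 UMIs (right) against the median UMIs of 5 equal groups of cells ordered by depth (log axis), for cells with at most 20 haemoglobin UMIs, with exact Poisson 95% intervals. Filled points are all classes and open points B-like and T/NK-like cells. Per cell the normal values rise from 1.83 to 2.67 and the fibrosis values from 0.303 to 0.528, while per 10000 UMIs both fall.

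The proportions of the 4 genes were nearly the same inside and outside erythroid-like cells of the normal library. Hbb-bs made up 51.6% of haemoglobin UMIs in erythroid-like cells, 53.3% in the other haemoglobin-rich droplets and 54.3% (53.5 to 55.1) in cells with at most 20. The ratio of beta to alpha UMIs was 1.84, 1.82 and 1.90 (1.84 to 1.97) in these sets. Single classes of the last set ran from 1.74 in T/NK-like to 2.90 in portal fibroblast-like cells, with intervals that all overlapped that of the whole set. The alpha copies differed slightly, with Hba-a1 over Hba-a2 at 1.15 in erythroid-like cells and 0.909 (0.860 to 0.960) in cells with few UMIs, and Hbb-bt made up 13.2% and 11.2%.

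In fibrosis the alpha genes took a larger part. Beta over alpha was 1.25 in the haemoglobin-rich droplets and 0.858 (0.791 to 0.93) in cells with at most 20 haemoglobin UMIs, where Hbb-bs made up 36.9% (34.9 to 38.8), Hba-a2 30.1%, Hba-a1 23.8% and Hbb-bt 9.30%. The B-like cells had 0.619 (0.467 to 0.815), the endothelial-like cells 0.830 (0.709 to 0.970) and the T/NK-like cells 1.01 (0.784 to 1.30), each below its normal counterpart (1.81, 1.91 and 1.74). The haemoglobin-rich droplets were not alike, with 1.05 in the 28 of the shallow cluster (1.73 in normal), 1.72 in the 3 endothelial-like ones (1.79 in normal) and 2.23 in the 1 hepatocyte-like one (1.75 in normal). One mouse stands behind each value.

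**Figure D4:**
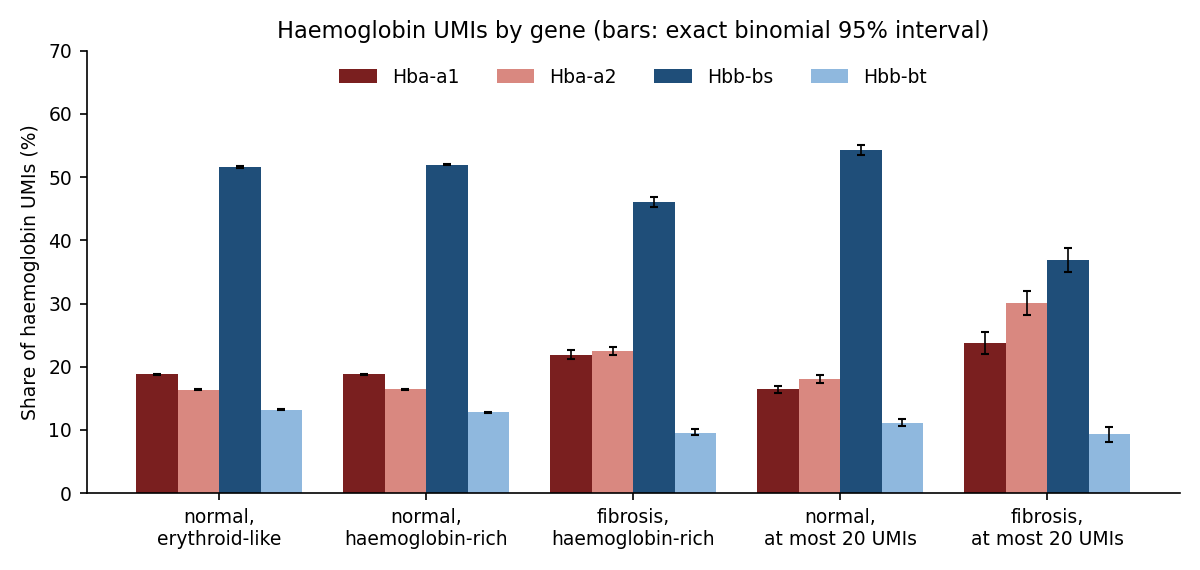
Share of haemoglobin UMIs (y axis, %) from each of the 4 haemoglobin genes in 5 sets of cells, as bars with exact binomial 95% intervals. Hbb-bs is the largest share in every set, from 36.9% in fibrosis cells with at most 20 haemoglobin UMIs to 54.3% in the corresponding normal cells.

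Outside haemoglobin-rich droplets Alas2 was mostly sparse and lower in fibrosis. It gave 487 UMIs in 433 of 7061 normal cells (0.123 per 10000) and 57 UMIs in 46 of 6099 fibrosis cells (0.0111), a fibrosis to normal ratio of 0.0907 (0.0677 to 0.120). The hepatocyte markers in the same cells stood at 343 and 40.5 per 10000 non-globin UMIs, and their part in this ratio was not tested. Thinned to 1000 UMIs it was found in 1.84% and 0.140% of cells. The ratio to haemoglobin was not that of erythroid-like cells, which held 2.58 Alas2 UMIs (2.46 to 2.69) per 1000 haemoglobin UMIs. The normal cells that were not haemoglobin-rich held 25.5 (23.2 to 27.9), and in them every class had a higher ratio than erythroid-like cells. These cells were chosen by low haemoglobin, the denominator of the ratio, so the difference is a description. The 410 normal haemoglobin-rich droplets together held 2.58.

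Hepatocyte-like cells, left over from the hepatocyte depletion, held the most Alas2 of the cells that were not haemoglobin-rich. In the normal library 77 UMIs lay in 55 of 220 cells (25%), or 0.504 per 10000, against 5.50% and 0.104 in endothelial-like cells, at median depths of 4440.5 and 5450.5 UMIs. Thinned to 1000 UMIs the shares were 4.09% (1.89 to 7.62) and 0.945% (0.593 to 1.43). In fibrosis 18 UMIs lay in 13 of 145 hepatocyte-like cells (8.97%) and 8 UMIs in 0.461% of endothelial-like cells. Haemoglobin was not raised alike in these cells, so that they held 117 Alas2 UMIs (91.3 to 149) per 1000 haemoglobin UMIs in normal and 295 (164 to 506) in fibrosis. No Alas2 UMI was seen in fibrotic neutrophil-like, pDC-like (plasmacytoid dendritic) or portal fibroblast-like cells. Another 7 were in a single fibrotic mesothelial-like cell.

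Fam46c was expressed outside the erythroid cells as well, above all in plasma-like cells of the normal library. There it reached 4.06 per 10000, with 703 UMIs in 95 of 202 cells (47.0%), against 2.53% of endothelial-like cells at 0.0590. Mesothelial-like cells followed with 1.63 in normal (35 of 45 cells) and 0.660 in fibrosis, then the unnamed cycling cells of normal (pooled from 2 clusters) with 1.23 and T/NK-like cells with 0.745 in normal and 1.003 in fibrosis. The T/NK-like cells also held B markers at 19.3 per 10000 non-globin UMIs in normal and 115 in fibrosis, and plasma markers that are not B cell markers at 14.3 and 127, and their part in the Fam46c levels was not tested. Fibrosis was 6.03 times (3.76 to 10.2) normal in B-like cells, where 15.9% of genes were at least 2-fold higher. No plasma-like class was separated in fibrosis, and plasma markers that are not B cell markers (21 genes) stood at 358 per 10000 non-globin UMIs in its B-like cells against 20.2 in the normal ones and 1403 in normal plasma-like cells. For B-like and plasma-like cells together the ratio was 0.364 (0.302 to 0.436). Fam46c was also 2.31 times the normal level in fibrotic Kupffer-like cells, where 3.35% of genes were at least 2-fold higher, and 0.404 and 0.405 times in mesothelial-like and portal fibroblast-like cells, where 11.6% were at least 2-fold lower in each. The B-like, Kupffer-like and portal fibroblast-like levels were under 1 per 10000 in both libraries, below the floor of those shares.

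Mkrn1 was highest in monocyte/dendritic-like cells (1.31 per 10000 in normal, 1.20 in fibrosis) and lowest in normal hepatocyte-like cells (0.197), with 2.24 times the normal level in fibrotic hepatocyte-like cells (37.8% of genes at least 2-fold higher, median ratio over all genes 1.65) and 0.474 times in neutrophil-like cells (8.97% at least 2-fold lower). Both hepatocyte-like levels were under 1 per 10000, and the hepatocyte markers there stood at 2240 per 10000 non-globin UMIs in normal and 897 in fibrosis, whose part in the ratio was not tested. Over all cells that were not haemoglobin-rich it was at 0.634 and 0.655 (ratio 1.03). Ube2l6 was likewise at 0.321 in normal and 0.322 in fibrosis (ratio 1.004), highest in mesothelial-like cells (0.817 and 0.666) and lowest in normal plasma-like cells (0.127). Bpgm was low in every class, from 0.0348 to 0.214 in normal and 0.0740 to 0.210 in fibrosis, and its fibrosis to normal ratio was 0.828. Fam46c stood at 0.456 and 0.297 (ratio 0.650). All 5 genes were under 1 per 10000 in both libraries there, and haemoglobin in the same cells had a ratio of 0.171.

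By gene, haemoglobin in the same fibrosis cells stood at 0.248 times normal for Hba-a1 (0.230 to 0.266), 0.214 for Hba-a2, 0.141 for Hbb-bs (0.134 to 0.148) and 0.130 for Hbb-bt. In cells with at most 20 haemoglobin UMIs the ratio was 0.182 for Hba-a1 (0.166 to 0.199), 0.209 for Hba-a2, 0.0853 for Hbb-bs (0.0795 to 0.0914) and 0.105 for Hbb-bt, so the droplets with more moved Hbb-bs by over 1.5 times. Hbb-bs was the single member that reached 1 per 10000, and did so in the normal library alone. Of the 2330 genes that reached it in either library 6.39% were at least 2-fold lower and 7.42% higher.

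**Figure D5:**
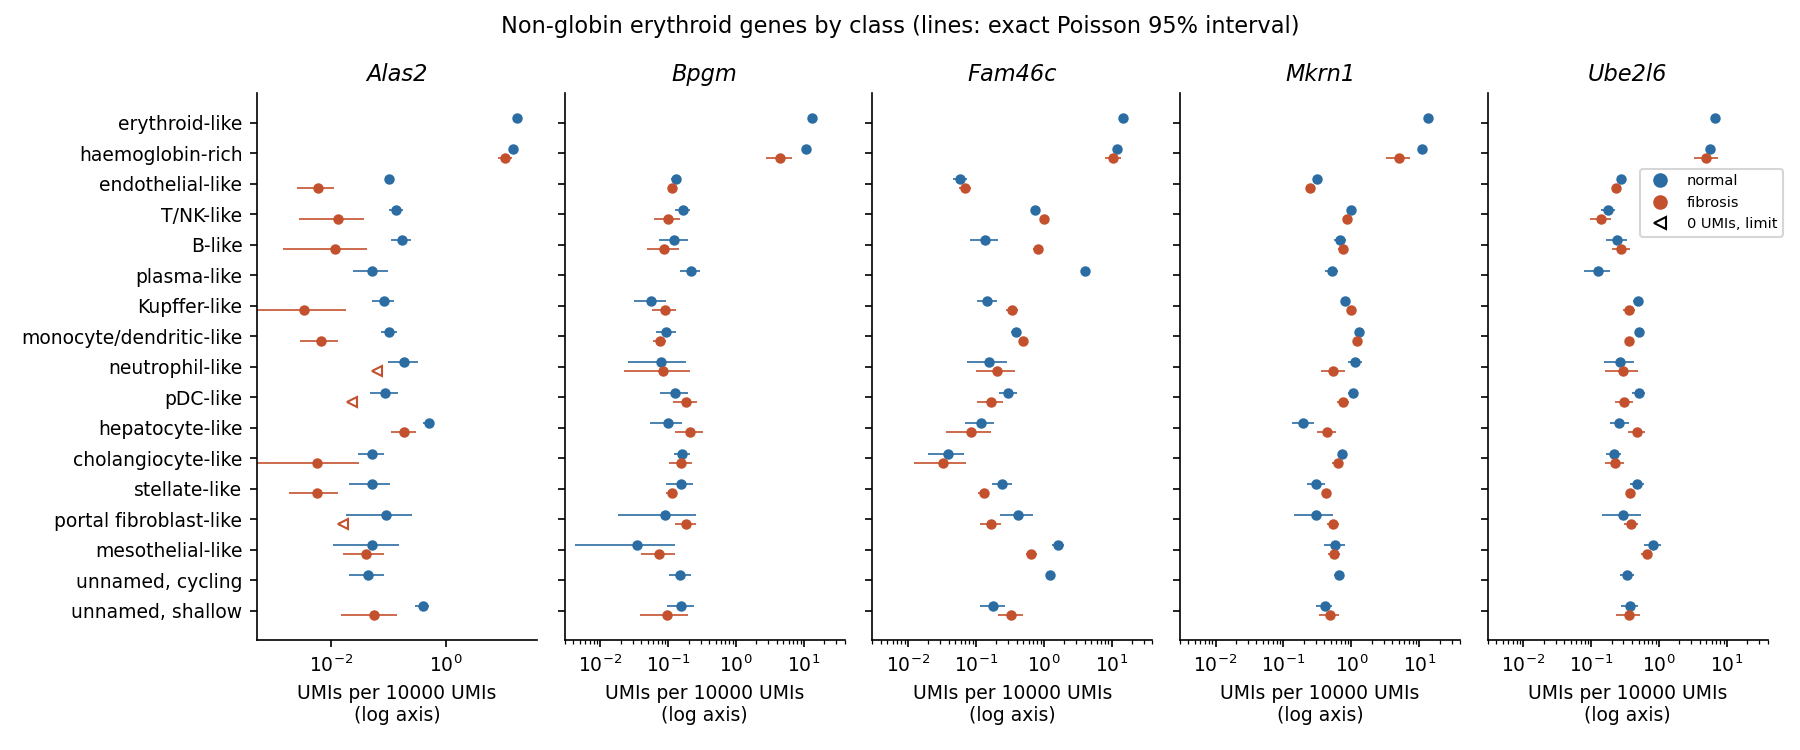
UMIs per 10000 UMIs (log axis) of Alas2, Bpgm, Fam46c, Mkrn1 and Ube2l6, one panel each, by cell class in the normal (blue) and fibrosis (orange) libraries, with exact Poisson 95% intervals. Haemoglobin-rich droplets are shown as a row of their own and left out of the classes below it, and open triangles mark classes with 0 UMIs at the limit that 3 counts allow. Alas2 stands at 17.9 in erythroid-like cells and at or below 0.504 in the named classes below, while Fam46c reaches 4.06 in plasma-like cells.

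Other genes of red cell biology were read by lists in erythroid-like against all other normal cells, and many of their genes had also served to name the class. Of all 1942 genes read in this comparison 2.01% were at least 2-fold higher and 87.4% at least 2-fold lower. A gene that reached 1 per 10000 in only 1 of the 2 sets entered the counts through the set where it was high, so levels are given and no list is read by its count. Of the 12 haem synthesis genes Slc25a37, the mitochondrial iron importer, stood at 6.37 per 10000 in erythroid-like and 0.815 in other cells (7.82-fold), and Fech, the last enzyme of the pathway, at 4.93 and 0.592 (8.32-fold), while Tmem14c stood at 0.502 and 1.43. Alas1, the form of the enzyme used by other tissues, was not read on this scale (0.874 against 0.996 per 10000) and was 2.87-fold higher per non-globin UMI. Of the 15 red cell membrane genes Epb41 (protein 4.1) stood at 8.03 and 0.665 per 10000 and Slc4a1 at 1.47 and 0.00721. Of the 8 ubiquitin and organelle clearance genes the mitophagy receptor Bnip3l, above 1 per 10000 in both sets, was 3.90-fold higher (8.29 and 2.12), while Ube2o stood at 3.61 and 0.194 and Ube2h at 1.42 and 1.30. Of the 7 antioxidant and carbonic anhydrase genes Gpx1 stood at 9.49 and 8.97 and catalase (Cat) at 7.77 and 5.95. Sod1 stood at 2.61 and 5.10 and Prdx2 at 2.57 and 1.58. Each was within 2-fold on this scale, where the median ratio over all genes read was 0.166. Per 10000 non-globin UMIs Prdx2 stood at 8.47 in erythroid-like cells and at 1.58 in normal cells that were not haemoglobin-rich.

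Of the 10 glycolysis genes Gapdh alone was above 1 per 10000 in both sets, at 2.25 in erythroid-like and 5.35 in other cells (0.420), in a comparison where 87.4% of all genes read were at least 2-fold lower. No glycolysis gene read passed 2-fold in either direction per non-globin UMI. Isg15, the modifier that Ube2l6 conjugates, was at 0.511 per 10000 UMIs in erythroid-like and 0.509 in other cells. On that scale haemoglobin is included in the total, and the median ratio over all genes read was 0.166. None of 8 erythroid transcription factors was read. Of 7 embryonic and minor globins 2 were listed, Hbq1a with 13 UMIs in erythroid-like and 12 in other cells and Hbq1b with 4 and 1. Of the haem-regulated kinase Eif2ak1 11 UMIs were found, and the alpha chain chaperone Ahsp was not listed.

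Across the 29 combinations of class and library the profile most like summed haemoglobin among 5585 genes was that of Alas2 (Pearson's r = 0.910, on log levels), followed by Cth (0.839) and Tdo2 (0.835), which were highest in normal hepatocyte-like cells. Alas2 was most like Hbb-bt (0.936). Ube2o (0.877) was among the 3 genes closest to Bpgm and Epb41 (0.785) among those closest to Mkrn1, and Fam46c and Ube2l6 were most like Apol11b (0.753 and 0.836). The combinations share 2 libraries, so these values describe likeness and carry no p.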

How the data were processed

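The authors aligned scRNA-seq reads of liver NPCs to mm10 with Cell Ranger 3.0.1 and deposited raw UMI counts per gene and cell, with genes at 0 throughout a library not listed. From these, cells with under 10% mitochondrial UMIs and over 200 genes were clustered in each library separately (scanpy 1.11.5 in Python 3.11.15, 2000 variable genes, 10 principal components, 20 neighbours, Leiden with igraph 0.11.9, resolution 0.8), without the 9 genes and other globins. A cluster took the class with most markers among its 10 leading genes by fold (at least 2 UMIs per 10000) if at least 3 markers were raised. The cluster with most haemoglobin-rich droplets was clustered again, and its sub-clusters not named erythroid were pooled as the shallow unnamed cluster, whatever their leading genes. The 2 normal clusters led by cell cycle genes were left unnamed and pooled, and monocyte and dendritic clusters were pooled. That step, the limit of 2, the 10% and 20-UMI limits on haemoglobin and the pooling of B-like and plasma-like cells were chosen after the data were seen.

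All 9 genes were named by rule, and other genes only within lists, of which some are not reported here. The 9 genes and the lists were chosen with earlier results of these data known. Intervals were computed with scipy 1.17.1 and tested on simulated counts. Sequences were aligned with Biopython 1.88. The methods state that doublets were excluded with Scrublet, and the cell numbers deposited equal those it clustered. Scrublet run here called 1 cell per library, too few to use as calls, and no doublets were removed here. Depth ran from 898 to 75847 UMIs per normal cell (median 4144.5) and from 815 to 116430 per fibrosis cell (median 5619), and the total per library set the precision of each level. Alternatives were other filters, scales, resolutions, doublet scores and haemoglobin limits. The fold change is a ratio of UMIs per 10000, or of UMIs per 10000 non-globin UMIs where stated.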

Additional observations from a re-analysis of the deposited data

Results flagged for a closer look

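Fam46c and Mkrn1 each had ratios between the libraries on either side of 1 in different classes of cells that were not haemoglobin-rich, with intervals clear of equal levels. Of the levels behind these ratios, those of Fam46c in normal mesothelial-like (1.63) and Mkrn1 in normal neutrophil-like cells (1.14) reached 1 per 10000, and the others did not. Fam46c in fibrosis was 6.03 times (3.76 to 10.2) its normal level in B-like cells, where 15.9% of genes were at least 2-fold higher. Plasma markers stood at 20.2 per 10000 non-globin UMIs in normal and 358 in fibrotic B-like cells, and with plasma-like cells added the ratio was 0.364 (0.302 to 0.436). Fam46c was 2.31 times (1.58 to 3.43) in Kupffer-like cells, where 3.35% of genes were at least 2-fold higher. Fam46c was 0.404 times (0.305 to 0.536) in mesothelial-like cells and 0.405 times (0.209 to 0.825) in portal fibroblast-like cells, where 11.6% of genes were at least 2-fold lower in either class. Mkrn1 was 2.24 times (1.37 to 3.71) its normal level in hepatocyte-like cells, where 37.8% of genes were at least 2-fold higher, and 0.474 times (0.290 to 0.750) in neutrophil-like cells, where 8.97% were at least 2-fold lower. The differences between classes were not tested, since each condition had 1 library.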

How the results depend on the processing

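No paired analysis was possible because each condition had 1 library and no test was run. None of the recomputed ratios crossed 1, and 35 of the 78 alternative values that bear on a whole comparison stayed within counting error or, for counts, within 1.5 times. All 5 non-globin genes were at least 2-fold higher in erythroid-like cells in every alternative, by 46.1 to 229 times for Alas2, 42.5 to 211 for Bpgm, 15.2 to 88.9 for Fam46c, 12.4 to 61.6 for Mkrn1 and 11.7 to 58.4 for Ube2l6.

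Without a cell filter the haemoglobin level was 6933 per 10000 in erythroid-like and 53.2 in all other normal cells, the endothelial-like fibrosis to normal ratio 0.0142 (0.0672 as analysed) and the share of haemoglobin UMIs inside erythroid-like cells 76.7%. With a mitochondrial limit of 5% erythroid-like cells were 15.2% of cells, at 6998, with 106 in other cells, an endothelial-like ratio of 0.0148, a ratio in cells not haemoglobin-rich of 0.158 (0.171 as analysed), 87.8% of haemoglobin UMIs inside the class and a Hbb-bs share of 54.4% (53.5% as analysed) in other cells. At resolution 0.4 the levels were 6934 and 50.9 and the share inside 79.0%. At resolution 1.5 erythroid-like cells were 2.72% of cells, the levels 7057 and 102, the endothelial-like ratio 0.0203, the share inside 57.4% and Hbb-bs 51.4% inside and 52.8% outside. With the 9 genes and other globins kept in the clustering the levels were 7063 and 56.8, the endothelial-like ratio 0.0542, the share inside 76.6% and Hbb-bs 51.8% and 52.8%. Per 10000 non-globin UMIs the levels were 22885 and 56.5. Per cell they were 2564 and 31.5 UMIs, the endothelial-like ratio 0.0947 and the ratio in cells not haemoglobin-rich 0.256. Leaving out the top 5% of cells by doublet score, the level in other cells was 45.8, the ratios 0.0826 and 0.181 and the share inside 81.7%. Without other-class cells over 10% haemoglobin the level in other cells was 4.79, the endothelial-like ratio 0.138 and the Hbb-bs share 55.1%. With the limit for haemoglobin-rich droplets at 5%, at 20%, or with at most 20 haemoglobin UMIs per cell, choices made after the data were seen, the ratio in the remaining cells was 0.182, 0.159 and 0.126. The causes of these movements were not tested.

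Depth limits the sparse values: the 33 fibrotic haemoglobin-rich droplets held 52399 UMIs in all, and rest on 1 mouse.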
